A study of Mus musculus with 5 samples.

Results

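In whole mouse kidneys labelled Pkd1 knockout or uninduced control, 10 genes were followed. They were 8 aquaporin genes, Aqp1, Aqp2, Aqp3, Aqp4, Aqp6, Aqp7, Aqp8 and Aqp11, the vasopressin V2 receptor Avpr2 and the sodium pump regulator Fxyd4. They were taken from the deposited gene table by symbol, 10 of 23997 rows, and all 10 reached the mean level needed for testing. The knockout group held 2 libraries, knockout 0 and knockout 1, from mice aged 8 weeks with the genotype label Pkd1 knockout. The control group held 3 libraries, control 0, 1 and 2, from uninduced mice of the same age. The mutants appear as SKO in the sample titles and as PkdTKO in the design text. The promoter that drives the deletion, the inducing agent, its timing, the sex of the mice and whether each library is 1 animal are unstated in the labels, so p-values measure only the spread between these libraries, which may be technical.

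Aquaporins are membrane pores for water, and some of them, the aquaglyceroporins, also pass glycerol. In the collecting duct, vasopressin binds the V2 receptor on the basolateral side of principal cells, cyclic AMP rises, and protein kinase A phosphorylates aquaporin-2, which then moves from vesicles to the apical membrane, while aquaporin-3 and aquaporin-4 let the water leave on the basolateral side. In the proximal tubule and the thin descending limb, water crosses through aquaporin-1 without vasopressin. Cyclic AMP made downstream of the V2 receptor drives fluid secretion and cell division in cystic kidneys, and antagonists of this receptor slow cyst growth.

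The GENCODE M21 annotation of mm10 places a pair of close neighbours and a small cluster among the genes. Aqp2 (chromosome 15, 99579055 to 99584547, plus strand) and Aqp6 (99601400 to 99605477, plus strand) flank Aqp5, with 16852 bases between Aqp2 and Aqp6. Aqp7 (chromosome 4, 41033074 to 41048139, minus strand) and Aqp3 (41092722 to 41098183, minus strand) are 44582 bases apart. Aqp11 and Aqp8 are on chromosome 7, Aqp1 and Fxyd4 on chromosome 6 and Avpr2 on the X chromosome. Of the 10 genes, only Avpr2 shares exon sequence with another annotated gene, 2347 bases with Arhgap4 on the opposite strand. Since no source used here states the strandedness of the counting, reads of Avpr2 and Arhgap4 may not be told apart and the level of Avpr2 is uncertain.

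The promoters of Aqp2 and Aqp3 are shown because both genes are expressed in principal cells and Aqp2 is a known target of cyclic AMP signalling. Their ratio, picked after the values were seen, did not overlap between the groups. The same held for 49.5% of all pairs of tested rows with no library at 0. A link between promoter sequence and this ratio was not tested. Each window is the 250 bases before the RefSeq start, on GRCm38.p6, at chr15:99578806-99579055 on the plus strand for Aqp2 and at chr4:41098184-41098433 on the minus strand for Aqp3. Capitals mark matches, on either strand, to the core TGACG of a cyclic AMP response element, to the GATA factor site AGATAA or to the TATA box TATAAA.
Aqp2: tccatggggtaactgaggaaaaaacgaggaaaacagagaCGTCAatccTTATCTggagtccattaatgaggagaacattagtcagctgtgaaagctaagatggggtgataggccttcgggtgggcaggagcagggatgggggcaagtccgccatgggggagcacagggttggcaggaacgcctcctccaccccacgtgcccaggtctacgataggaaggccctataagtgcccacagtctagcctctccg
Aqp3: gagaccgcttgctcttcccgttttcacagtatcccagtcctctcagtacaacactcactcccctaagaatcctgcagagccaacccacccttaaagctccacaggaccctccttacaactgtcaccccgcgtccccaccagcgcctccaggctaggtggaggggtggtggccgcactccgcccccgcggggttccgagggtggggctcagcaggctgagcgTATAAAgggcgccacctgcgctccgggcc
The Aqp2 window held the core CGTCA, the reverse complement of TGACG, at bases -211 to -207 from the start, and the GATA site TTATCT, the reverse complement of AGATAA, at -202 to -197. The Aqp3 window held neither, and a TATA box at -29 to -24. Of 32851 RefSeq windows of the same 250 bases, 17.8% held the core TGACG, 9.99% the GATA site and 12.4% the TATA box, on either strand. The full element TGACGTCA, which contains the core, was in 1.55% of windows and in none of the windows of these genes. RefSeq windows were matched for 9 of the 10 genes. Among their windows the core was in that of Aqp2 alone. The GATA site was also in a window of Aqp7, and the TATA box, on the reverse strand, in that of Avpr2.

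The deposited values are FPKM, that is, fragments counted on a transcript divided by its length and by the library's mapped fragments, and the depth is not stated. Proximal tubule genes, as kidney markers, summed to 5186 and 5068 FPKM in the knockout libraries and to 6388 to 7007 in the controls. The whole table summed to 493226.2 and 462814.3 in knockout 0 and 1, against 504914.2 to 507052.8 in the controls. Pkd1 itself was not detectably lower, at 2.72 and 3.60 FPKM in the knockout libraries against 3.22, 3.51 and 3.49 in the controls, so every direction is that of libraries labelled as knockouts. Knockout 0 and 1 contained 30.8 and 80.3 FPKM of Xist, the transcript of the inactive X chromosome, against 0.0222 to 0.0275 in the controls. The Y-linked Ddx3y had 7.30 and 0.00194 FPKM, against 17.8 to 18.6, so the sex of the RNA and the genotype cannot be told apart. Knockout 0 alone held Xist together with Y-linked RNA, which included Uty at 2.95 and Kdm5d at 1.81 FPKM, below every control. Whether this library mixes RNA of male and female mice was not tested. Of 5 tested sex chromosome genes Xist rose (limma adjusted p = 0.00481, lost without control 0 and in a fit with a block for the replicate number). Exact zeros, found in at least 1 library for 87 tested rows, were absent from the 10 genes.

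Taken as a group, 9 of the 10 genes had a negative difference in the knockout libraries, most of them small, and Fxyd4 alone passed the test. Differences were computed on log2(FPKM + 1) and tested with limma over the 12640 rows whose mean FPKM was 1 or more, with Benjamini-Hochberg adjustment and a threshold of 0.05. Of the 10 genes 1 fell, 0 rose and 9 did not pass, beside 3.62% of all tested rows called lower and 2.73% called higher. At an unadjusted p under 0.05, 4 of the 10 were lower and 0 higher, beside 16.6% and 12.5% of all tested rows. The same shares are the background for the unadjusted counts of the gene lists that follow. Both knockout libraries lay below every control in 6 of the 10 genes (Avpr2, Aqp3, Aqp1, Aqp7, Aqp11 and Fxyd4), beside 26.3% of all tested rows. They lay above every control in 0, beside 21.9%. These counts and shares use FPKM as deposited and depend on scaling. In Avpr2, Aqp3 and Aqp7 the nearest control was only 1.06, 1.01 and 1.03 times higher. The table sum of knockout 1 was the lowest, and dividing by the table sums would make the groups overlap in these genes. The median fitted log2 difference was -0.31 over the 10 genes and -0.02 over all tested rows. Knockout 0 was below every control in 9 of the 10 genes and knockout 1 in 6, beside 43.9% and 38.5% of all tested rows. In 8 of the 10 genes knockout 0 was the lower of the knockout libraries, and the median log2 difference from the control mean was -0.37 in knockout 0 and -0.15 in knockout 1. Fewer cells of a type and less RNA per cell cannot be told apart in whole-kidney RNA.

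**Figure D1:**
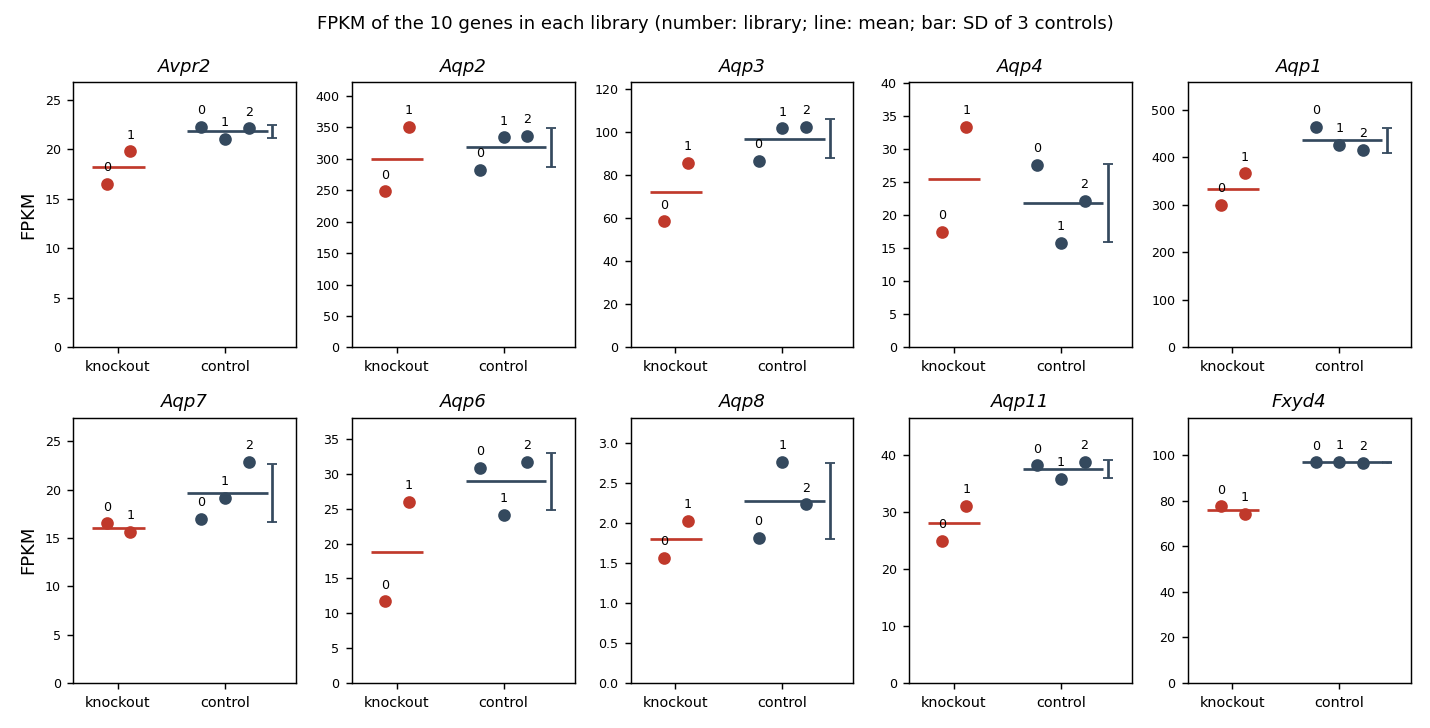
FPKM (vertical axes, starting at 0) of each gene in the 2 knockout libraries and the 3 control libraries, each point being 1 library labelled by its number, with group means as lines and the SD of the controls as a bar. Fxyd4 was at 77.6 and 74.2 FPKM in the knockout libraries and within 96.6 to 97.1 in the controls, whereas Aqp2 and Aqp4 had their highest value in knockout 1.

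Avpr2, the receptor of the pathway, had 16.5 and 19.8 FPKM in knockout 0 and 1, against 22.3, 21.02 and 22.1 FPKM in control 0, 1 and 2. Both knockout libraries lay below every control, knockout 1 by a narrow margin, since the nearest control was only 1.06 times higher. The log2 difference of -0.26 (SE 0.0942, 95% interval -0.49 to -0.02) fell short of the threshold (limma adjusted p = 0.15). The exact permutation test gave 0.1, which is the lowest p that 2 libraries against 3 can give. Against the same controls, knockout 0 alone gave -0.38 and knockout 1 alone gave -0.13. Arhgap4, the gene whose exons overlap Avpr2, had 3.31 and 2.89 FPKM in the knockout libraries and 2.52, 2.65 and 2.53 in the controls.

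Aqp2, the water channel that vasopressin moves to the apical membrane, was not displaced in 1 direction. It had 248.2 and 351.4 FPKM in knockout 0 and 1, against 282.7, 334.4 and 337.1 FPKM in the controls. Knockout 0 was the lowest of the 5 libraries and knockout 1 the highest. The fitted log2 difference of -0.10 (SE 0.175, 95% interval -0.54 to 0.34) had a limma adjusted p of 0.739. It was positive, 0.15, without knockout 0 (adjusted p = 0.478) and 0.07 after quantile normalization (adjusted p = 0.856).

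Aqp3, the basolateral aquaglyceroporin of principal cells, had 58.4 and 85.7 FPKM in knockout 0 and 1, against 86.4, 101.6 and 102.4 FPKM in the controls. Knockout 0 was well below the controls, and knockout 1 lay just below control 0. The log2 difference of -0.44 (SE 0.181, 95% interval -0.90 to 0.01) was not called (limma adjusted p = 0.179). It was -0.71 without knockout 1 and -0.17 without knockout 0.
Aqp3 is also expressed in the urothelium, the lining of the renal pelvis. The summed level of the 10 urothelial genes examined was 50.5 and 61.7 FPKM in knockout 0 and 1, against 60.4 to 78.7 in the controls, and none of the 10 passed (4 lower and 1 higher at an unadjusted p under 0.05). This sum joins genes of opposite direction. The higher gene was Foxq1, at 12.25 and 22.47 FPKM against 6.85 to 8.64 (limma adjusted p = 0.0817). The uroplakin gene Upk3a had 0.858 and 2.46 FPKM against 4.81 to 6.39 (limma adjusted p = 0.0523). Another uroplakin gene, Upk1a, had 1.95 and 3.20 against 4.455 to 6.455 (limma adjusted p = 0.0734). The part of the urothelium in the level of Aqp3 was not tested.

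Aqp4, the other basolateral channel, varied most, relative to its mean, between the controls. It had 17.4 and 33.4 FPKM in knockout 0 and 1, against 27.6, 15.8 and 22.2 FPKM in the controls. The lowest and the highest values were those of control 1 and knockout 1, and the groups overlapped. The log2 difference of 0.17 (SE 0.334, 95% interval -0.67 to 1.01, limma adjusted p = 0.77) was negative without control 1 (-0.03, adjusted p = 0.967) and without knockout 1 (-0.28, adjusted p = 0.546).

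Aqp1, the water channel of the proximal tubule, the thin descending limb and the descending vasa recta, was the most abundant of the 10 in the controls. It had 300.2 and 366.5 FPKM in knockout 0 and 1, against 464.6, 426.4 and 415.2 FPKM in the controls, so that both knockout libraries were below every control. The log2 difference was -0.39 (SE 0.118, 95% interval -0.69 to -0.09), which did not pass over all rows (limma adjusted p = 0.107). Without knockout 1 it was -0.53, and without knockout 0 it was -0.25. Of 17 tested marker genes of the proximal tubule 0 passed (7 lower and 3 higher at an unadjusted p under 0.05), and the median log2 differences were -0.22 (knockout 0) and -0.03 (knockout 1). Ggt1, an enzyme of the brush border, had 428.9 and 355.8 FPKM in the knockout libraries against 728.5, 563.7 and 646.1 in the controls, whereas Cubn, the endocytic receptor cubilin, had 50.9 and 61.1 against 39.1, 42.1 and 38.2 (adjusted p = 0.0536 and 0.0582). Aqp1 is also present in red cells and endothelium. The summed level of 9 erythrocyte genes was 135.9 and 17.4 FPKM in knockout 0 and 1, against 29.6 to 60.5 in the controls, and that of 12 endothelial genes 257.3 and 259.6 against 243.9 to 251.2. None of 4 tested erythrocyte genes or of 12 endothelial genes passed by limma (1 lower, and 2 higher, at an unadjusted p under 0.05). The lower erythrocyte gene was Slc4a1, which is also counted below among the intercalated cell genes, so it does not stand for red cells alone. The part of these cells in the level of Aqp1 was not tested.

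Aqp7, the aquaglyceroporin of the straight proximal tubule, was the only gene besides Fxyd4 for which knockout 1 was the lowest library. It had 16.5 and 15.6 FPKM in knockout 0 and 1, against 17.0, 19.2 and 22.9 FPKM in the controls. Both knockout values lay just under those of control 0, and the controls themselves spread more widely than the gap. The log2 difference was -0.27 (SE 0.130, 95% interval -0.59 to 0.06), with a limma adjusted p of 0.24.
Adipocytes express Aqp7 as well. Adipoq, the adipocyte hormone adiponectin, had 0.0569 and 0.515 FPKM in the knockout libraries against 2.77, 1.29 and 1.65 in the controls (adjusted p = 0.0658), and only 4 of 11 adipocyte genes reached the mean level for testing, of which 0 passed and 2 were lower at an unadjusted p under 0.05. The 11 summed to 116.3 and 106.9 FPKM against 122.6 to 138.3, most of it Fabp4, which endothelium also expresses. The part of fat in the level of Aqp7 was not tested.

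Aqp6, a channel in the vesicles of acid-secreting intercalated cells, had the largest difference of the 10 genes in knockout 0. It had 11.7 and 26.0 FPKM in knockout 0 and 1, against 30.9, 24.2 and 31.7 FPKM in the controls. Knockout 0 was at 40.5% of the control mean, while knockout 1 lay between control 1 and control 0. The log2 difference of -0.68 (SE 0.328, 95% interval -1.51 to 0.14) was not called (limma adjusted p = 0.233). Set against the controls alone, knockout 0 gave -1.23 and knockout 1 gave -0.14. No test was made between the knockout libraries, and where 1 of them is fitted alone its spread is taken to equal that of the controls.
The other intercalated cell genes had their lower median in the same library. Of 14 tested, 0 passed by limma and 8 were lower at an unadjusted p under 0.05, beside 16.6% of all tested rows. Both knockout libraries lay below every control in 9 of the 14, beside 26.3% of all tested rows. The median log2 differences were -0.86 (knockout 0) and -0.28 (knockout 1). Atp6v1g3, a subunit of the proton pump of these cells, had 19.4 and 27.8 FPKM in knockout 0 and 1 against 35.9, 45.8 and 35.9 in the controls (limma adjusted p = 0.0811). Rhbg, an ammonia transporter, had 16.5 and 28.8 against 34.8, 44.6 and 37.1 (adjusted p = 0.109).

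Aqp8, a channel found mostly inside cells, was the least abundant of the 10. It had 1.56 and 2.02 FPKM in knockout 0 and 1, against 1.81, 2.76 and 2.23 FPKM in the controls, and the groups overlapped. The log2 difference was -0.22 (SE 0.158, 95% interval -0.62 to 0.18, limma adjusted p = 0.399), which the added pseudocount of 1 makes smaller than the change in FPKM.

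Aqp11, an unorthodox aquaporin of the endoplasmic reticulum whose loss causes cystic kidneys in mice, came closest to the threshold among the aquaporins. It had 24.9 and 31.1 FPKM in knockout 0 and 1, against 38.2, 35.8 and 38.8 FPKM in the controls. Both knockout libraries were below every control, at 66.2% and 82.7% of the control mean. The log2 difference of -0.42 (SE 0.110, 95% interval -0.70 to -0.14) had an unadjusted p of 0.0107 and did not pass over all rows (limma adjusted p = 0.083). Without knockout 1 it was -0.58, and without knockout 0 it was -0.27.

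Fxyd4, also called CHIF, a small membrane protein that modulates the sodium pump in the collecting duct, fell by a similar amount in both knockout libraries. It had 77.6 and 74.2 FPKM in knockout 0 and 1, against 96.9, 97.1 and 96.6 FPKM in control 0, 1 and 2. The controls differed by less than 1 FPKM (SD 0.251, n = 3), and the knockout libraries stood at 80.1% and 76.6% of their mean. The log2 difference was -0.35 (SE 0.067, 95% interval -0.52 to -0.18, limma adjusted p = 0.047). The call is narrow, since it passed in 6 of 15 alternative fits. It was lost without control 0, 1 or 2 (adjusted p = 0.177, 0.125 and 0.222), without knockout 0 (0.0504), after rescaling to TPM (0.0755), median-of-ratios scaling (0.0553) or quantile normalization (0.0828) and without a variance trend (0.05005), while the log2 difference stayed between -0.38 and -0.26.
Among 8 tested relatives of Fxyd4 and sodium pump subunits 0 passed, with 3 lower and 0 higher at an unadjusted p under 0.05. Fxyd2, the gamma subunit of the pump, had 3231 and 2787 FPKM in knockout 0 and 1 against 3712, 4107 and 3721 in the controls (limma adjusted p = 0.126). Atp1b1, which encodes a beta subunit of the pump, was listed at 0 in all 5 libraries.

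**Figure D2:**
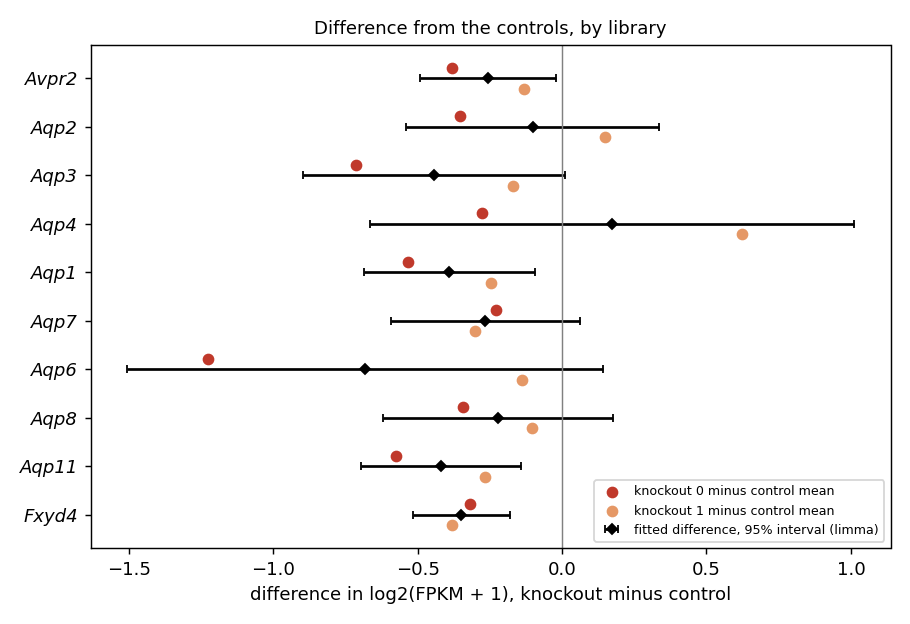
Difference in log2(FPKM + 1), knockout minus control, for each gene (horizontal axis): the limma estimate with its 95% interval (black diamonds), knockout 0 minus the control mean (red) and knockout 1 minus the control mean (orange). Knockout 0 was on the negative side for all 10 genes, knockout 1 for 8 of them, and the points of Fxyd4 and Aqp7 lay closest together.

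The order of the levels changed little between the groups. In the controls Aqp1 averaged 435.4 FPKM ± 25.9 (SD, n = 3) and Aqp2 318.1 ± 30.7, and their ranges did not overlap, whereas in the knockout libraries Aqp1 averaged 333.3 and Aqp2 299.8 with overlapping ranges. Fxyd4 (75.9 in the knockout libraries and 96.9 in the controls) and Aqp3 (72.0 and 96.8) followed, with overlapping ranges in either group. Aqp11 came next, at 28.0 in the knockout libraries, where its range overlapped that of Aqp4, and 37.6 in the controls, where it stood apart. Aqp6, Aqp4, Avpr2 and Aqp7 had overlapping ranges between neighbours in both groups, with means of 16.1 to 25.4 FPKM in the knockout libraries and 19.7 to 28.9 in the controls. The 8 aquaporins together summed to 678.9 and 911.8 FPKM in knockout 0 and 1, against 949.2, 960.1 and 972.6 in the controls.

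Ratios between genes of the same library do not depend on how libraries are scaled to each other, and the ratio of Aqp2 to Aqp3 separated the groups by the widest margin relative to its spread among those named here. It was 4.25 and 4.10 in knockout 0 and 1, against 3.27, 3.29 and 3.29 in control 0, 1 and 2 (control SD 0.0106). Aqp2 was thus more abundant relative to Aqp3 in both knockout libraries, although their levels of Aqp2 lay on either side of the controls. The ratio of Aqp2 to Aqp1 was 0.827 and 0.959 against 0.609, 0.784 and 0.812, and the ratio of Aqp2 to Aqp11 was 9.98 and 11.3 against 7.40, 9.34 and 8.70. Relative to Fxyd4, Aqp2 stood at 3.20 and 4.74 against 2.92, 3.44 and 3.49, and these groups overlapped. Of the 9 ratios with Aqp2, 4 were higher in both knockout libraries than in every control, beside 7.47% of its ratios to the 12552 tested rows with no library at 0. Over all 45 pairs of the 10 genes the groups did not overlap in 7, beside 49.5% of all pairs of such rows. The ratios were chosen after the values were seen and have no test.

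**Figure D3:**
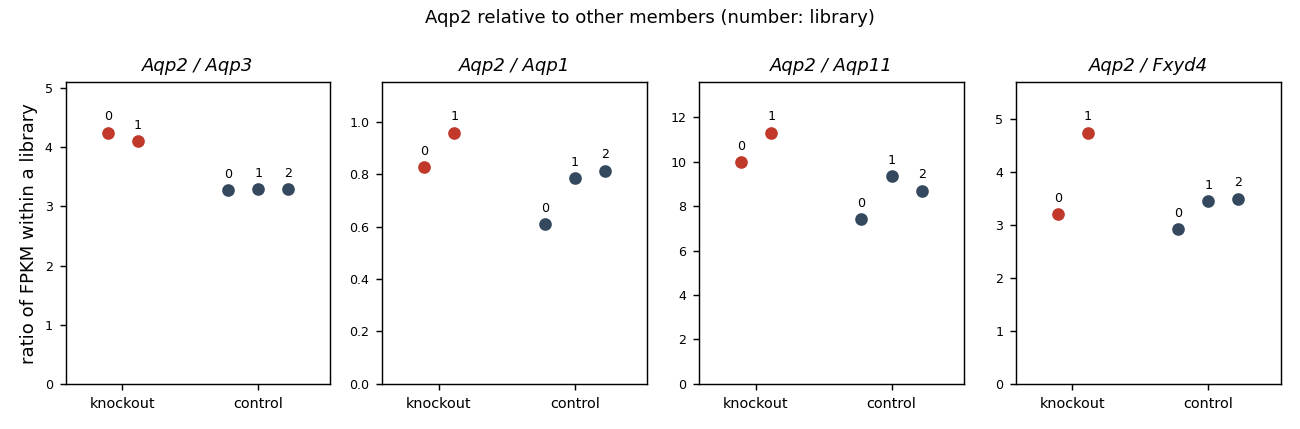
Ratio of the FPKM of Aqp2 to that of Aqp3, Aqp1, Aqp11 and Fxyd4 within each library (vertical axes, starting at 0), for the 2 knockout and the 3 control libraries, each point being 1 library labelled by its number. The ratio to Aqp3 lay at 4.25 and 4.10 in the knockout libraries and at 3.27 to 3.29 in the controls, and the ratio to Fxyd4 overlapped.

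Other genes of principal cells had median differences nearer to 0 than the 10 genes in either knockout library. Among 16 tested principal cell genes 1 fell, 0 rose and 15 were not called, and the median log2 differences were -0.14 (knockout 0) and 0.0038 (knockout 1). Scnn1a, a subunit of the epithelial sodium channel, had 46.2 and 53.7 FPKM in the knockout libraries against 50.4, 50.6 and 51.6 in the controls. Hsd11b2, which keeps cortisol-like steroids from the mineralocorticoid receptor, had 158.7 and 172.8 against 146.6, 186.2 and 168.6. The gene that fell was Ptges, the prostaglandin E synthase, at 7.53 and 7.79 FPKM in knockout 0 and 1 against 11.8, 11.1 and 11.6 in the controls (log2 -0.53, limma adjusted p = 0.0222). Ehf, an ETS factor of the collecting duct, had 5.44 and 9.25 against 12.2, 14.1 and 13.0 (adjusted p = 0.0788).

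Among 23 tested genes of vasopressin and cyclic AMP signalling 0 passed by limma, with 4 higher and 1 lower at an unadjusted p under 0.05, and the median log2 difference was 0.08. Prkar2b, a regulatory subunit of protein kinase A, had 1.13 and 1.69 FPKM in the knockout libraries against 3.62, 2.49 and 2.83 in the controls (adjusted p = 0.067). The phosphodiesterase genes Pde4d, at 5.76 and 6.96 against 4.64, 4.14 and 4.65, and Pde4b, at 5.13 and 6.61 against 4.30, 3.99 and 3.99, degrade cyclic AMP (adjusted p = 0.0706 and 0.0851). Adcy6, the adenylyl cyclase through which V2 signals in principal cells, had 26.6 and 37.3 against 27.6, 30.5 and 31.5.

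Of 24 tested genes of Aqp2 trafficking and turnover 21 did not pass, and with rows holding a library at 0 left out 1 rose and 1 fell. Ezr, which encodes ezrin, a link between membrane and actin that binds aquaporin-2, rose to 218.1 and 195.3 FPKM in knockout 0 and 1, against 152.3, 155.5 and 151.2 in the controls (log2 0.43, SE 0.082, limma adjusted p = 0.0464). Vamp8, a vesicle SNARE, fell to 216.0 and 206.4, against 279.4, 276.9 and 268.1 (log2 -0.38, SE 0.0746, adjusted p = 0.0487). The remaining call, Hspa8, a chaperone of clathrin uncoating, was listed at 1014 and 802.4 FPKM in the knockout libraries and at 0 in every control, and no direction was drawn from it.

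Factors that regulate Aqp2 transcription included 2 immediate early genes that rose, while 18 of 20 tested members did not pass and 0 fell. Fos had 7.54 and 11.2 FPKM in knockout 0 and 1, against 1.28, 1.80 and 1.13 in the controls (log2 2.09, SE 0.195, limma adjusted p = 0.0127). Jun had 27.7 and 20.7, against 10.5, 9.86 and 11.8 (log2 1.09, SE 0.143, adjusted p = 0.0255). Gata3, a GATA factor of the collecting duct, had 8.73 and 10.4 against 8.39, 9.76 and 11.8, and Tfcp2l1, which shapes principal and intercalated cells, 45.8 and 65.7 against 49.8, 53.3 and 56.4.

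The medullary osmolyte genes, which answer the concentrated interstitium that water reabsorption through aquaporins needs, differed from the controls by a median of -0.26 (knockout 0) and 0.11 (knockout 1) on the log2 scale. Of 13 tested 1 fell, Hspa1a, a heat shock protein induced by tonicity, at 4.09 and 4.69 FPKM against 6.21, 6.43 and 5.998 (log2 -0.42, limma adjusted p = 0.0471). Slc6a6, the taurine transporter, had 56.9 and 64.6 against 76.6, 81.8 and 82.8 (adjusted p = 0.0595), and Nfat5, the tonicity-responsive factor, 12.0 and 17.5 against 16.0, 15.4 and 15.2. Of 8 tested genes of glycerol handling, the solute of Aqp3 and Aqp7, 1 fell and 0 rose. The list was mixed, with 3 lower and 2 higher at an unadjusted p under 0.05. The gene that fell was Gpd1, a glycerol-3-phosphate dehydrogenase, at 141.1 and 139.9 FPKM against 183.3, 177.4 and 180.1 (log2 -0.36, limma adjusted p = 0.0471). The lipase gene Pnpla2 had 36.1 and 33.8 against 45.3, 45.5 and 43.2 (limma adjusted p = 0.0523). The calls of Ezr, Vamp8, Gpd1 and Hspa1a were lost without any 1 control and without knockout 0, those of Ptges and Jun without any 1 control, and that of Fos without control 0 or control 2. Rescaled to TPM, Vamp8, Gpd1 and Hspa1a did not pass either, nor did Ezr, Vamp8 and Gpd1 with median-of-ratios scaling or Vamp8 and Gpd1 after quantile normalization. With no filter on low values Ezr, Vamp8, Hspa1a, Fos and Jun were lost. Hspa1a was also lost at a mean FPKM of at least 5 and without a variance trend. In a fit with a block for the replicate number, none of Ezr, Vamp8, Gpd1, Hspa1a, Ptges, Jun and Fos passed.

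Genes of other nephron segments gave lower medians in knockout 0 than in knockout 1. For the thick ascending limb the median log2 difference was -0.78 in knockout 0 and 0.02 in knockout 1, with 1 of 13 tested genes lower, the transcription factor Irx1 (8.14 and 13.3 FPKM against 33.4, 25.4 and 32.0, limma adjusted p = 0.0311). For the distal convoluted tubule it was -0.40 and 0.05, with Calb1, the calcium buffer calbindin, lower (100.5 and 148.8 FPKM against 263.7, 288.1 and 244.9, adjusted p = 0.0362) and Klk1, listed at 0 in the controls, as the other of 2 calls among 10 tested. Without any 1 control, neither Irx1 nor Calb1 passed. Both were also lost with no filter on low values and in a fit with a block for the replicate number, and Calb1 after quantile normalization. Macrophage genes differed by a median of 1.95 (knockout 0) and 0.32 (knockout 1) on the log2 scale, with 0 of 11 tested passing by limma. At an unadjusted p under 0.05, 7 were higher, beside 12.5% of all tested rows. Both libraries lay above every control in 11 of 11, beside 21.9% of all tested rows. The macrophage genes summed to 479.5 and 162.0 FPKM, against 107.2 to 119.1 in the controls. Tubule injury genes had medians of 1.27 and -0.16, with 0 of 11 passing by limma and 2 higher at an unadjusted p under 0.05. The part of injury and of added macrophage RNA in the lower values of knockout 0 was not tested.

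**Figure D4:**
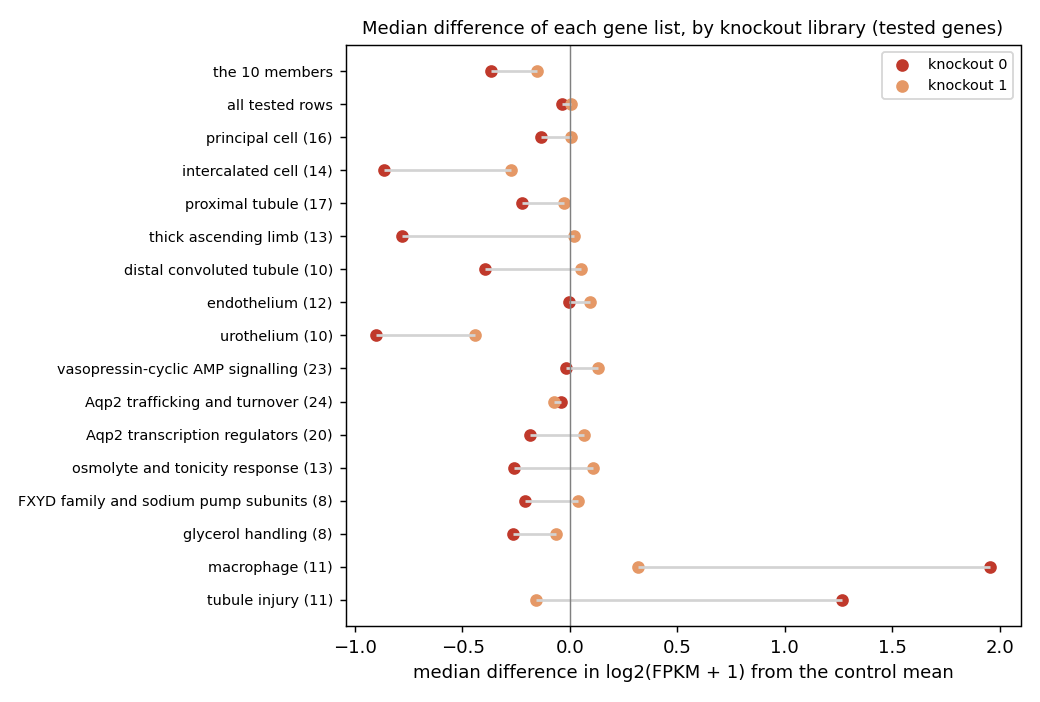
Median difference in log2(FPKM + 1) from the control mean (horizontal axis) of each gene list, number of tested genes in brackets, in knockout 0 (red) and knockout 1 (orange). The 10 genes had medians of -0.37 and -0.15, principal cell genes -0.14 and 0.00, and intercalated cell genes -0.86 and -0.28.

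Genes whose profile over the 5 libraries was most like that of a member were found by the root mean square difference of log2(FPKM + 1), each centred on its own mean, among 12552 rows. Nearest to Aqp2 were Gm10560 (0.0144 log2 units), Fam193b (0.0226) and Metrn (0.0247). Nearest to Avpr2 were Mtg2 (0.0117), 0610009O20Rik (0.0126) and Casd1 (0.0141). Aqp1 was followed most closely by Mycbp (0.0196), Sucla2 (0.0202) and 3110057O12Rik (0.0231), and Aqp3 by Ybx2 (0.0315), Pcp4l1 (0.0339) and Tmem234 (0.0428). For Aqp4, with its wide spread, the nearest were farther off, Elfn1 (0.083), Stk32b (0.0908) and Casr (0.105), the calcium-sensing receptor. With 5 libraries such nearness is a description only.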

How the data were processed

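Total RNA from whole kidneys was made into mRNA libraries with an Illumina kit, per the labels' protocols. The authors deposited gene FPKM, 1 column per library, named by symbol. Per the submitters' processing notes bcl2fastq and mm10 were used, and no source used here names the aligner, the counting program, the annotation or the strandedness. No value column lacked a library (0 unmapped). Depth is unknown, so no counting interval is given.

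Groups follow the genotype label. FPKM is not a count, so limma 3.58.1 in R 4.3.3 (lmFit, eBayes with a variance trend, two-sided) was run on log2(FPKM + 1) over rows whose mean FPKM was 1 or more, which understates the change of low genes. A check of the fit on simulated data gave every library the spread of the controls. It cannot speak for a wider spread between the knockout libraries, which correlated at 0.9605 across genes, against 0.9885 to 0.9904 between controls. Exact two-sided permutation tests used single genes. Python 3.11.15, numpy 2.4.6, pandas 2.3.3 and matplotlib 3.10.9 served for the rest. Alternatives were a pseudocount of 0.1, other filters, 3 scalings, other variance models, a replicate block, the removal of each library in turn, and other thresholds.

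The members and the 19 lists were chosen with earlier results of these data known. The rule for named genes took all 10 members, up to 3 genes of each list by adjusted p, and the 3 rows nearest to each of Aqp1, Aqp2, Aqp3, Aqp4 and Avpr2. Pkd1, Arhgap4, Ddx3y, Scnn1a, Hsd11b2, Adcy6, Gata3, Tfcp2l1, Nfat5, Atp1b1, Slc14a2 and Aqp5 were named after their values were seen. All 252 list entries were found, 5 under older symbols, and 1 further gene is not reported here.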

Additional observations from a re-analysis of the deposited data

How the results depend on the processing

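Over all rows 802 genes passed (345 higher, 457 lower), 247 with no filter on low values (141 higher, 106 lower), 2044 at an adjusted p under 0.1, 193 when at least 2-fold, and 38 to 2606 with 1 library left out (38 without control 0, 165 without control 1, 38 without control 2, 2606 without knockout 1). After rescaling to TPM 454 genes were higher and 266 lower. Of the 10 genes 1 was called lower, 0 after rescaling to TPM, median-of-ratios scaling, quantile normalization, without a variance trend or when at least 2-fold, 2 at an adjusted p under 0.1 (Aqp11 and Fxyd4), and 0 to 6 with 1 library left out, the 6 without knockout 1. None was called higher in any of the alternatives. The log2 difference of Aqp2 turned to 0.0672 after quantile normalization and ranged from -0.35 to 0.15 with 1 library left out, and that of Aqp4 from -0.28 to 0.62 (-0.03 without control 1). The other 8 kept a negative difference in all alternatives run, and Aqp8 could not be fitted at a mean FPKM of at least 5. Among named list genes Hbb-bs ranged from -1.03 (without knockout 0) to 4.50 and Hbb-bt from -1.47 to 0.59 (without knockout 1). The cause was not tested.

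The fit with a replicate block passed 28 genes, and 0 of the 10 were called lower (Fxyd4 adjusted p = 0.315 by limma). The titles give only a shared number: the deviations from the group means correlated at 0.128 for number 0 and 0.0184 for number 1 across genes, and there are only 2 pairs, so the samples were not treated as paired.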

Other observations

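Other water channels and receptors of the same families were scarce in these kidneys. Aqp5, which lies between Aqp2 and Aqp6, had 0.0878 and 0.226 FPKM in knockout 0 and 1, against 0.384, 0.455 and 0.3997 in the controls, and was not tested at this level. Avpr1a, the vasopressin V1a receptor, was the only 1 of 7 such genes with a level high enough for testing, at 3.50 and 6.64 FPKM against 7.97, 7.63 and 7.83 (limma adjusted p = 0.156). Slc14a2, the vasopressin-regulated urea transporter of the inner medulla, had 7.13 FPKM in knockout 0 and 28.2 in knockout 1, against 40.1, 35.4 and 33.4 in the controls. Its log2 difference of -1.27 (SE 0.519) did not pass (limma adjusted p = 0.179).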
